A study of Drosophila melanogaster with 7 samples.

Results

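The genes of the respiratory chain were examined in a single-cell RNA atlas of the central brain of Drosophila melanogaster. Members were taken by symbol from the gene list that the 7 sequencing runs share. Every gene whose symbol starts with mt: formed the mitochondrial set, and every gene whose symbol starts with ND-, COX, UQCR-, ATPsyn or Sdh formed the nuclear set. This gave 45 of 16764 genes. The mitochondrial set held 37 genes, of which 13 code for proteins, 2 for ribosomal RNAs and 22 for transfer RNAs. The nuclear set held 8 genes, namely SdhA, SdhB and SdhC of complex II and ATPsyn-b, ATPsyn-d, ATPsyn-Cf6, ATPsyn-gamma and ATPsyn-beta of complex V. The prefixes ND-, COX and UQCR- matched 0 genes, because the deposited gene list names the nuclear subunits of complexes I, III and IV by older symbols. A further 80 nuclear respiratory chain genes under such symbols were therefore counted beside the members, as a group of their own that was drawn up after the symbols were seen. Of these, 24 are by their symbol copies or paralogs of another subunit and 56 are not.

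The flies were males of 10 inbred lines of the Drosophila Genetic Reference Panel, a set of wild-derived strains. Brains were dissected without optic lobes at 4 to 9 days of age, dissociated with actinomycin D, a transcription blocker, and pooled, so that each run held cells of 5 to 9 lines. Lines 379 and 441 were in all 7 runs, lines 908, 303 and 287 in 6, lines 646 and 88 in 5, line 313 in 3, line 892 in 2 and line 359 in 1. Flies were collected at zeitgeber time (ZT) 2, 8, 14 or 20 after spontaneous sleep (S), recovery sleep (RS), gaboxadol-induced sleep (GBX-S), sleep in a yoked control (YC-S), sleep deprivation (SD) or wakefulness (W), which with their time windows made 12 conditions. Runs 1 to 4 each mixed flies of 2 ZT times, run 5 held flies of ZT 20 and runs 6 and 7 flies of ZT 8. The study asks which genes follow sleep drive, with mitochondrial genes among its candidates. The cells analysed here were not joined to a line, a fly or a condition, so most comparisons below are between cell types within runs, and 1 at the end is between whole runs.

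Mitochondrial DNA of animals codes for a few core subunits of complexes I, III, IV and V and for the RNAs of the mitochondrial ribosome, whereas most subunits, and all of complex II, are coded in the nucleus. Complex I (NADH dehydrogenase) and complex II (succinate dehydrogenase) feed electrons into the chain, complex III passes them to cytochrome c, complex IV (cytochrome c oxidase) passes them to oxygen, and complex V (ATP synthase) uses the proton gradient to make ATP. In the brain, neurons draw much of their ATP from this chain, and glia of the fly are known for a more glycolytic metabolism that feeds neurons.

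The runs held 10241 to 36984 barcodes each, 164038 in all, with 49949595 to 311443505 unique molecular identifiers (UMIs, counted molecules) per run, and 148562 cells remained after filtering. Clusters were built without the member genes and named from markers, with 82.3% of cells in neuronal clusters, 8.79% in glial clusters, 5.75% in clusters with markers of both and 3.03% unnamed. Markers differed between the named classes. Their levels are given in CPM (UMIs of a gene per 1000000 UMIs), for markers of the UMIs outside mitochondrial genes, pooled over all runs. The glial transcription factor gene repo stood at 223 CPM in glia and 4.91 CPM in neurons. The astrocyte gene alrm stood at 3750 CPM in astrocyte-like glia and 989 CPM in ensheathing glia. The sugar transporter Tret1-1 stood at 2238 CPM in perineurial glia and 5.14 CPM in neurons. Tyrosine hydroxylase, ple, stood at 4354 CPM in dopaminergic neurons and 11.8 CPM in the other neurons. The astrocyte-like name was weakly supported for 1 cluster of 1924 cells (cluster 2), where alrm stood at 1037 CPM, near the level in ensheathing glia, and repo at 54.1 CPM against 190 CPM in ensheathing glia, while CG1732, a GABA transporter gene of astrocytes, stood at 1118 CPM against 424 CPM. Neuronal RNA was present in glia as well, with the synaptic gene nSyb at 590 CPM in glia against 2179 CPM in neurons, and its part in the differences between glia and neurons was not tested. A perineurial cluster of 788 cells (cluster 74) had nSyb at 985 CPM and Tret1-1 at 1016 CPM. Another perineurial cluster of 532 cells (cluster 86) had 310 and 3043 CPM. The part of neuronal RNA in the perineurial comparison was not tested either. Pairs of runs shared 35 to 355 barcodes, at most 1.14% of the smaller run. Runs 2, 3 and 4 contained no barcode under 2658 UMIs, whereas the others reached down to 500 UMIs. Run 1 stood apart for the mitochondrial genes, as described below. Replicates are runs of pooled brains. Between classes the run was a block, so p-values there measure how the difference within runs varies from run to run. In the comparison of whole runs they measure the spread between runs.

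The levels of the members spanned a wide range. Over all cells and runs, 6 mitochondrial transcripts exceeded 10000 CPM: mt:lrRNA, the large ribosomal RNA (18452 CPM), mt:CoI, the catalytic subunit of complex IV (18405 CPM), mt:CoII (17906 CPM), mt:CoIII (16299 CPM), mt:Cyt-b, the mitochondrially coded subunit of complex III (11911 CPM), and mt:ATPase6, the proton channel subunit of complex V (11436 CPM). Per kilobase of annotated transcript, mt:CoII was highest (26140 CPM per kb), followed by mt:CoIII (20657 CPM per kb), mt:ATPase6 (16943 CPM per kb), mt:lrRNA (13937 CPM per kb), mt:CoI (11983 CPM per kb) and mt:Cyt-b (10476 CPM per kb). The 7 subunits of complex I were lower, from 2903 CPM per kb for mt:ND3 to 59.1 CPM per kb for mt:ND4L. The small ribosomal RNA mt:srRNA stood at 673 CPM per kb. Since the libraries tag the 3′ end of polyadenylated RNA, these per-length values compare captured tags and not the abundance of whole transcripts. Of the 22 transfer RNA genes, 19 were under 1 CPM, mt:tRNA:P had 0 UMIs, and the highest was mt:tRNA:S:AGY at 6.06 CPM.

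Among the nuclear members, the coupling factor ATPsyn-Cf6 was highest per length (1017 CPM per kb), followed by the peripheral stalk subunits ATPsyn-b (767 CPM per kb) and ATPsyn-d (651 CPM per kb). The catalytic subunit ATPsyn-beta stood at 368 CPM per kb and the rotor subunit ATPsyn-gamma at 298 CPM per kb. In complex II, SdhC, a membrane anchor, stood at 360 CPM per kb, SdhB, the iron-sulfur subunit, at 208 CPM per kb and SdhA, the flavoprotein, at 62.7 CPM per kb. Levels of the nuclear members were thus below those of the most abundant mitochondrial transcripts on the same scale.

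In genome build BDGP6 the mitochondrial members lie close together, with little space between them. On the major strand lie mt:ND2 (240 to 1263), mt:CoI (1474 to 3009), mt:CoII (3083 to 3767), mt:ATPase8 (3907 to 4068), mt:ATPase6 (4062 to 4736), mt:CoIII (4736 to 5524), mt:ND3 (5608 to 5961), mt:ND6 (9971 to 10495) and mt:Cyt-b (10499 to 11635). On the other strand lie mt:ND5 (6409 to 8125), mt:ND4 (8207 to 9545), mt:ND4L (9545 to 9835), mt:ND1 (11721 to 12659), mt:lrRNA (12735 to 14058) and mt:srRNA (14131 to 14916). mt:ATPase8 and mt:ATPase6 overlap and are known to share a transcript, as are mt:ND4 and mt:ND4L, so the low values of mt:ATPase8 (309 CPM per kb) and mt:ND4L are uncertain. The nuclear members are spread over the genome, with SdhB (2R:6807626-6809172) and SdhA (2R:19391863-19395971) on 2R, ATPsyn-b (3L:9729999-9731224) on 3L, SdhC (3R:11208887-11209849), ATPsyn-d (3R:19095000-19096271), ATPsyn-Cf6 (3R:23355220-23356064) and ATPsyn-gamma (3R:29747704-29749163) on 3R and ATPsyn-beta (4:1031484-1034917) on chromosome 4.

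Glia carried a larger share of mitochondrial UMIs than neurons in every run. In the 13063 glial cells the share per run ranged from 12.4% in run 1 to 26.8% in run 6, with a median of 19.7% and a mean of 20.02% ± 4.69 (SD, n = 7). In the 122252 neurons it ranged from 4.97% in run 1 to 12.6% in run 2, with a median of 8.999% and a mean of 9.05% ± 2.59 (SD, n = 7). The ranges of the classes touched, since glia of run 1 lay below neurons of run 2, but within runs the glial share was 1.57 to 2.83 times the neuronal one. Some low-UMI clusters first named neuronal were left unnamed, while a low-UMI ensheathing cluster of 3174 cells stayed in glia. The 4507 unnamed cells had a median share of 14.7% per cell, against 9.38% in neurons and 17.6% in glia. The part of this naming in the difference was not tested. A share of UMIs rises both with more mitochondrial RNA and with less other RNA in a cell, and these cannot be told apart here. Perineurial glia (1429 cells), which form the outer layer of the blood-brain barrier, had 18.8% ± 3.59, ensheathing glia (5165 cells), which wrap neuropils and tracts, 19.4% ± 5.30, and astrocyte-like glia (4293 cells), which infiltrate the synaptic neuropil, 24.6% ± 6.69 (SD, n = 7 each).

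Neuronal classes lay close together in the mitochondrial share. VAChT clusters, named from the vesicular acetylcholine transporter, had 9.28%, Gad1 clusters, named from the enzyme that makes GABA, 9.21%, and VGlut clusters, named from the vesicular glutamate transporter, 8.89% as means over 7 runs. Dopaminergic neurons (1879 cells) had 8.65% and ellipsoid body (EB) ring neurons (2530 cells) 8.59%. Kenyon cells of the mushroom body (14012 cells) had a lower share of 7.30% ± 2.92 (SD, n = 7), and clock neurons (713 cells) had 7.09%. Between runs the share differed more than between these classes, and run 1 was lowest in every class drawn in the plot of mitochondrial shares.

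**Figure D1:**
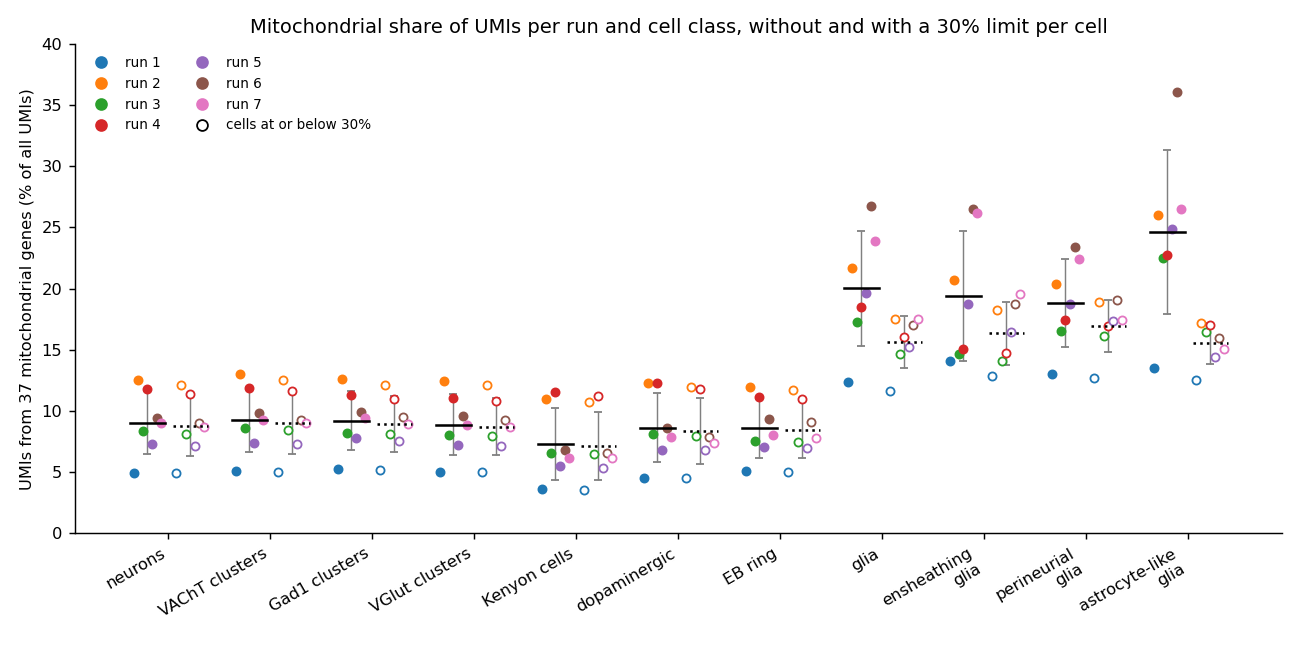
Mitochondrial UMIs as a percentage of all UMIs (vertical axis) for 11 cell classes (horizontal axis), with 1 point per run, filled for all cells and open for cells with at most 30% mitochondrial UMIs. Lines mark means and bars SDs over 7 runs; glia average 20.02% of all cells' UMIs and 15.7% under the limit, neurons 9.05% and 8.78%.

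A limit of 30% mitochondrial UMIs per cell, a common quality filter, removed cells unevenly. It took out 16.4% of glial cells over all runs (2147 cells), from 2.50% in run 1 to 40.3% in run 6, and 1.91% of neurons, from 0.332% to 3.14% per run. Astrocyte-like glia lost 24.4% of their cells, ensheathing glia 15.9% and perineurial glia 14.4%. Of the 4507 unnamed cells, which include low-UMI clusters first named neuronal, 19.9% were lost. With the limit the glial share fell to 15.7% ± 2.10 (SD, n = 7) and the neuronal share to 8.78%, and glia remained 1.41 to 2.36 times above neurons in each of the 7 runs. The order among glia changed, as the means were then 15.5% in astrocyte-like, 16.4% in ensheathing and 16.9% in perineurial glia, and astrocyte-like glia were above ensheathing glia in 2 of 7 runs with the limit and in 6 of 7 without it.

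Each mitochondrial mRNA and ribosomal RNA was higher in glia than in neurons. In quasi-likelihood tests on UMI sums per run and class, with the run as a block, each of the 13 mRNAs and both ribosomal RNAs passed an adjusted p of 0.05 in the direction of glia, where 74.8% of all 8881 genes tested passed in either direction and 36.6% in the direction of glia. The median log2 difference of the 13 mRNAs was 1.502, or 2.83-fold, beside a median of -0.06 over all genes tested. It lay between 0.89 and 1.93 in single runs. Depth differed between the classes, with a median of 834 to 1033 UMIs per glial cell and 4195 to 5248 UMIs per neuron in runs 1, 5, 6 and 7, and 4341 to 5117 and 6259 to 7077 UMIs in runs 2, 3 and 4. In cells with at least 3000 UMIs the mRNA median was 1.28 and each of the 15 transcripts was called higher in glia. That setting kept 109914 of 122252 neurons. Of the glia it kept 360 of 2605 in run 1, 311 of 1860 in run 5, 188 of 1220 in run 6 and 88 of 1014 in run 7. It kept 1157 of 5165 ensheathing cells, so the mix of glial types changed as well. mt:CoI reached 11649, 16904 and 22337 CPM as the lowest, median and highest run in neurons and 25689, 30110 and 40410 CPM in glia, so the ranges did not overlap (log2 difference 1.53 ± 0.15, SE, adjusted p = 2.49e-05). The smallest difference among the mRNAs was that of mt:ND1 (1.19 ± 0.09, adjusted p = 7.95e-06) and the greatest that of mt:ND6 (1.80 ± 0.17). mt:ND6 was low in run 1, at 155 CPM in neurons and 448 CPM in glia, against 1092 to 1743 CPM in neurons of the other runs. Run 1 was low in the same way for mt:ND1 (257 CPM in neurons, with 1023 to 2001 CPM in the other runs) and mt:ND2 (99.8 CPM in neurons, median 857 CPM). Without run 1 the log2 difference of mt:ND6 was 1.76 and that of mt:CoI was 1.51.

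The ribosomal RNAs differed more than the mRNAs. mt:lrRNA had 2066, 12439 and 31051 CPM as the lowest, median and highest run in neurons and 16482, 54912 and 93585 CPM in glia (log2 difference 2.81 ± 0.34, SE, 7.02-fold, adjusted p = 9.1e-05). The highest neuronal run exceeded the lowest glial run, and glia were higher within each of the 7 runs. mt:srRNA differed by 2.69 ± 0.29 (adjusted p = 4.72e-05). The median of both was 2.75 without a mitochondrial limit and 1.84 with the 30% limit, and the median of the mRNAs was 1.502 and 1.25. As shares of all UMIs, the glial value was 1.87 times the neuronal one for the complex I transcripts, 1.91 times for complex III, 1.90 times for complex IV, 2.25 times for complex V and 5.23 times for the ribosomal RNAs (means of 7 run ratios, each above 1 in 7 of 7 runs). The 6 transfer RNAs with enough counts for the test were also higher in glia.

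The nuclear members went in both directions, with 3 of 8 called higher and 2 called lower in glia. Of all 8881 genes tested 36.6% were higher and 38.2% lower, so the count called higher is near the share of all genes. Levels of nuclear members per class are given here and below in CPM of the UMIs outside mitochondrial genes. SdhA had 187, 210 and 230 CPM as the lowest, median and highest run in neurons and 80.1, 92.5 and 108 CPM in glia, without overlap (log2 difference -0.75 ± 0.07, SE, adjusted p = 1.67e-05). SdhB had 239 to 378 CPM in neurons and 140 to 224 CPM in glia, which overlapped on the normalised scale of the test only (151 to 214 in glia and 192 to 268 in neurons, log2 difference -0.38 ± 0.06, adjusted p = 0.000479). These catalytic subunits of complex II were called lower in glia under every alternative tried. Of complex V, ATPsyn-Cf6 (0.35 ± 0.06, adjusted p = 0.00111), ATPsyn-b (0.25, adjusted p = 0.00666) and ATPsyn-gamma (0.19, adjusted p = 0.0161) were the genes called higher in glia in the main test. With the UMIs outside mitochondrial genes as library size their log2 differences turned to -0.06, -0.16 and -0.22, and no nuclear member was called higher and 7 lower. On that scale the sum of the 8 genes was 4044 ± 513 CPM in glia and 4902 ± 531 CPM in neurons (SD, n = 7), and glia were lower within 7 of 7 runs, at 0.824 times the neuronal level. That scaling shifts all genes alike and moved their median from -0.06 to -0.46, so its counts do not bear on these genes in particular, and relative to that median the nuclear median was 0.17 there and 0.18 in the main test. Of the 56 nuclear genes under older symbols, 19 were higher and 8 lower of 55 tested, and 1 higher and 44 lower with the other library size, with medians of 0.16 and 0.15 relative to all genes. A further 47 genes of the mitochondrial pathways were counted apart. They cover electron carriers, chain subunits outside the symbol prefixes, membrane transport, the citrate cycle, mitochondrial genome expression, dynamics, quality control and regulators. Nuclear subunits of the chain such as blw, cype and levy are thus among them. Of these 47 genes, 45 were tested, 14 were higher and 18 lower in glia. The 5 greatest differences were led by Idh, an isocitrate dehydrogenase (3.01), and Cyt-c-d, a cytochrome c (-1.55). Cyt-c-d reached no more than 1.82 CPM on the normalised scale of the test. Then came kdn, citrate synthase (-1.42), the kinase gene Pink1 (1.15) and the chaperonin gene Hsp60 (-0.96).

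**Figure D2:**
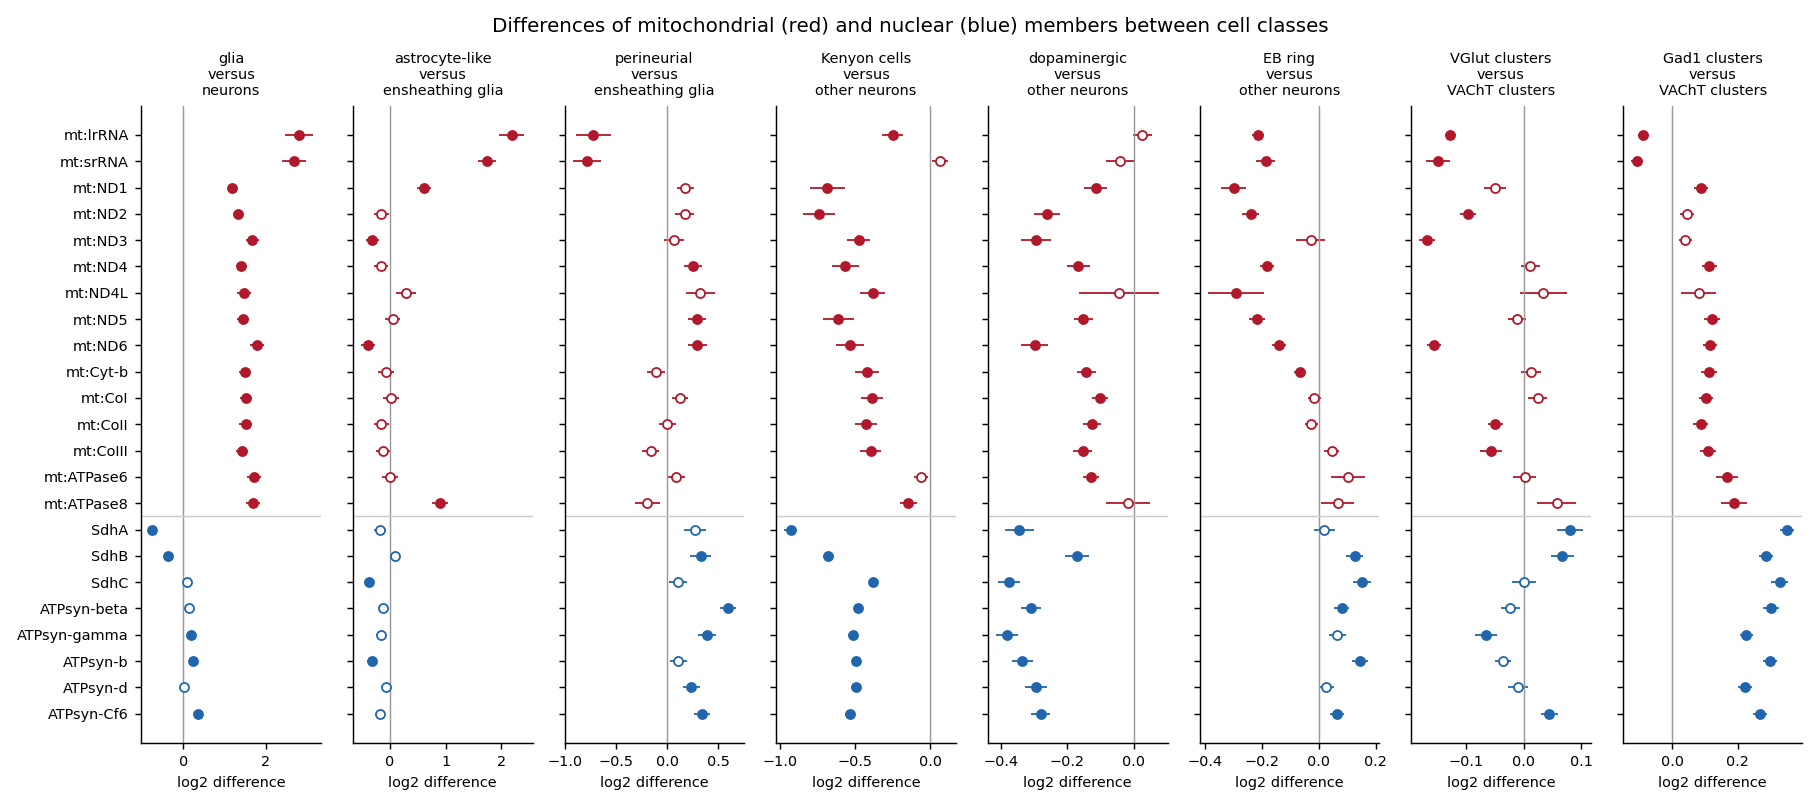
Log2 differences (horizontal axes) of 23 members (rows) in 8 comparisons between cell classes (panels), red for mitochondrial and blue for nuclear members. Points are filled where the adjusted p was below 0.05 and bars are SEs; in glia against neurons the mitochondrial points lie between 1.19 and 2.81, and SdhA lies at -0.75.

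Astrocyte-like glia differed from ensheathing glia in the ribosomal RNAs of the mitochondrion. mt:lrRNA had 45849, 106807 and 219503 CPM as the lowest, median and highest run in astrocyte-like glia and 6248, 32560 and 55996 CPM in ensheathing glia. It was higher in astrocyte-like glia in 7 of 7 runs (log2 difference 2.19 ± 0.23, SE, 4.56-fold, adjusted p = 1.23e-06), and the ranges overlapped only through the lowest astrocyte-like run. mt:srRNA was higher by 1.74 ± 0.17 (adjusted p = 6.57e-07). Of the mitochondrial UMIs of astrocyte-like glia, mt:lrRNA made up 45.1% ± 8.97 (SD, n = 7), from 33.9% in run 1 to 60.8% in run 6, against 16.3% ± 6.91 in ensheathing glia, 10.6% in perineurial glia and 13.7% in neurons. In each run it thus took a larger part of the mitochondrial UMIs in astrocyte-like glia than in ensheathing glia.

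The difference changed with the mitochondrial limit and with depth. With the 30% limit the log2 difference of mt:lrRNA was 0.92 and its call was lost (adjusted p = 0.0898), while that of mt:srRNA was 0.81 (adjusted p = 0.0452). With at least 3000 UMIs per cell it was 3.07 for mt:lrRNA (adjusted p = 0.00055). That setting kept 1157 of 5165 ensheathing cells, with 14 to 60 of them in each of runs 1, 5, 6 and 7. It kept 15 astrocyte-like cells in run 7. Of the low-UMI ensheathing cluster of 3174 cells 57 remained, so in those runs the setting compares largely different ensheathing cells. Depth differed between the classes, with a median of 953 UMIs per cell in ensheathing and 3621 UMIs in astrocyte-like glia, and a cluster of 3174 ensheathing cells had a median of 703 UMIs. Within astrocyte-like glia, 1 cluster (cluster 2, 1924 cells) had a mitochondrial share of 34.9% ± 9.32, of which mt:lrRNA made up 57.0% ± 7.35, and another (cluster 49, 2243 cells) had a share of 15.0% ± 3.51, of which mt:lrRNA made up 22.3% (SD, n = 7). Over the limit were 48.2% of the cells of cluster 2 and 4.41% of those of cluster 49. The ribosomal RNAs took 20.8% of all UMIs in cluster 2 (8.98% to 33.6% per run), 3.66% in cluster 49 and 3.38% in ensheathing glia, and cluster 2 is the cluster whose name was weakly supported. Pooled over all runs, the astrocyte marker alrm stood at 1037 and 5548 CPM of the UMIs outside mitochondrial genes in clusters 2 and 49. In the same pooled cells repo stood at 54.1 and 252 CPM and nSyb at 499 and 704 CPM. The non-coding RNA gene noe stood at 250533 and 35782 CPM of the UMIs outside mitochondrial genes. The part of these other differences in the ribosomal RNA values was not tested.

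**Figure D3:**
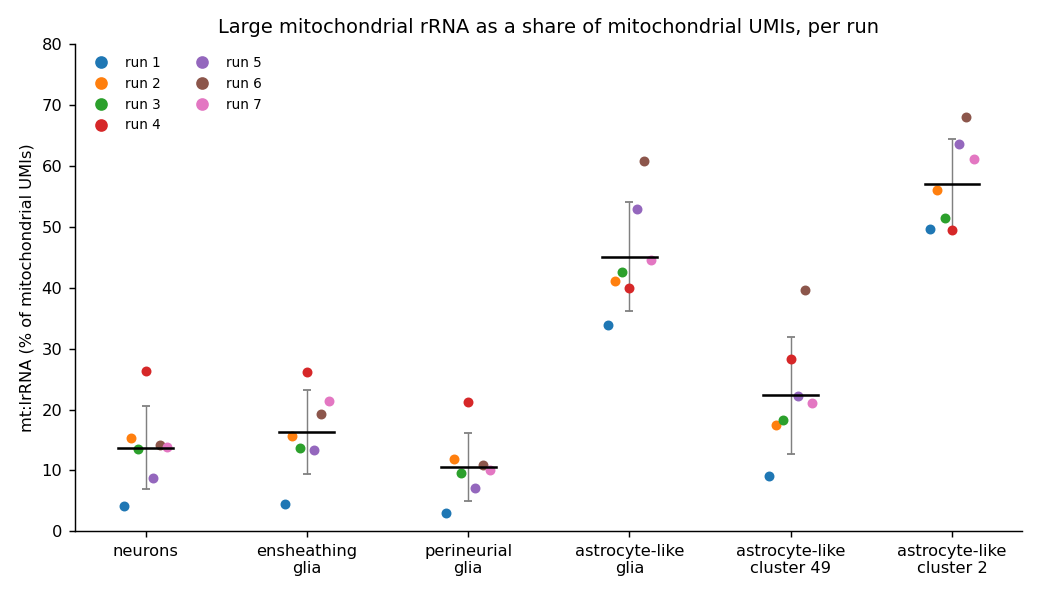
mt:lrRNA as a percentage of mitochondrial UMIs (vertical axis) in neurons, ensheathing, perineurial and astrocyte-like glia and in clusters 2 and 49 of astrocyte-like glia (horizontal axis), with 1 point per run, means as lines and SDs as bars over 7 runs. Astrocyte-like glia lie between 33.9% and 60.8%, ensheathing glia between 4.44% and 26.1%.

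The other members differed less between astrocyte-like and ensheathing glia. In all, 8 of the 23 members outside the transfer RNAs were called, where 30.1% of 5825 genes tested were called, 11.5% higher and 18.7% lower in astrocyte-like glia. mt:ATPase8 was higher by 0.90 ± 0.14 (adjusted p = 3.41e-05) and mt:ND1 by 0.62 ± 0.13 (adjusted p = 0.000549), each in 6 of 7 runs. mt:ND6 (-0.39, adjusted p = 0.0218) and mt:ND3 (-0.31, adjusted p = 0.0383) were lower, and the other 9 mRNAs were not called. SdhC had 166 to 292 CPM in astrocyte-like and 257 to 427 CPM in ensheathing glia (-0.37 ± 0.09, adjusted p = 0.00326), and ATPsyn-b was lower by 0.33 on the log2 scale (adjusted p = 0.00998). The calls of mt:ND1, mt:ATPase8, mt:ND3, mt:ND6, SdhC and ATPsyn-b were each lost with the 30% limit. With at least 3000 UMIs per cell, and so with few ensheathing cells in some runs, 8 mRNAs were higher and none lower, and the calls of both nuclear genes were lost. Of the 54 tested genes under older symbols, 1 was higher and 19 were lower, and 5 and 0 with at least 3000 UMIs. Of the 40 tested other pathway genes, 6 were higher and 7 lower, led by Idh (-1.93), l(1)G0255, a fumarase (-0.53), and the cytochrome c gene Cyt-c-p (0.53).

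Perineurial glia showed higher levels of complex V genes than ensheathing glia. ATPsyn-beta had 1079, 1186 and 1739 CPM as the lowest, median and highest run in perineurial glia and 697, 825 and 1023 CPM in ensheathing glia. The ranges did not overlap (log2 difference 0.59 ± 0.08, SE, adjusted p = 2.49e-05). ATPsyn-gamma (0.39, adjusted p = 0.00237), ATPsyn-Cf6 (0.34, adjusted p = 0.00287), SdhB (0.33, adjusted p = 0.0237) and ATPsyn-d (0.23, adjusted p = 0.0377) were also higher. No nuclear member was lower, and 38% of 6117 genes tested were called, 20.8% higher and 17.1% lower. The 8 genes summed to 5306 ± 854 CPM of the UMIs outside mitochondrial genes in perineurial and 4108 ± 589 CPM in ensheathing glia (SD, n = 7), a ratio of 1.21 to 1.39 within runs. Of the 54 tested genes under older symbols, 32 were higher and 0 lower, and of 40 other pathway genes 14 were higher and 0 lower, among them Acon, an aconitase (2.22), and Mdh2, a malate dehydrogenase (1.08).

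The ribosomal RNAs went the other way in perineurial glia. mt:lrRNA was lower by 0.72 ± 0.18 on the log2 scale (adjusted p = 0.00913) and mt:srRNA by 0.79 ± 0.14 (adjusted p = 0.000329), each in 7 of 7 runs. Among the mRNAs, mt:ND6 (0.30), mt:ND5 (0.29) and mt:ND4 (0.25), all of complex I, were called higher and the other 10 were not called. With at least 3000 UMIs per cell 11 mRNAs were called higher and the call of mt:lrRNA was lost (-0.59, adjusted p = 0.153). That setting left 14 to 60 ensheathing and 28 to 44 perineurial cells in each of runs 1, 5, 6 and 7. Without run 3, 5 of the 10 calls remained, and the call of ATPsyn-d was lost whichever of the 7 runs was left out. The perineurial and the astrocyte-like comparison share the ensheathing samples.

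Across the cell classes the order of the nuclear set was not that of the mitochondrial set. The 8 genes summed to 5657 ± 655 CPM of the UMIs outside mitochondrial genes in Gad1 clusters, 5306 ± 854 CPM in perineurial glia, 5059 ± 627 CPM in EB ring neurons, 4947 ± 449 CPM in VAChT clusters and 4834 ± 520 CPM in VGlut clusters. Lower came serotonergic neurons (4450 CPM), octopaminergic neurons (4261 CPM), clock neurons (4144 CPM), ensheathing glia (4108 CPM) and dopaminergic neurons (4023 ± 383 CPM). Lowest were Kenyon cells (3397 ± 363 CPM) and astrocyte-like glia (3290 ± 510 CPM, SD, n = 7). Neighbours in this order overlapped between runs. Over 12 classes the mean mitochondrial share and the nuclear sum had a Pearson r of -0.23, and over the 9 neuronal classes 0.73. Both are given as a description, since the classes share their libraries and some share cells. The VAChT, Gad1 and VGlut clusters were taken from all neuronal clusters but Kenyon cells, so they can include clusters of the other named neurons.

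**Figure D4:**
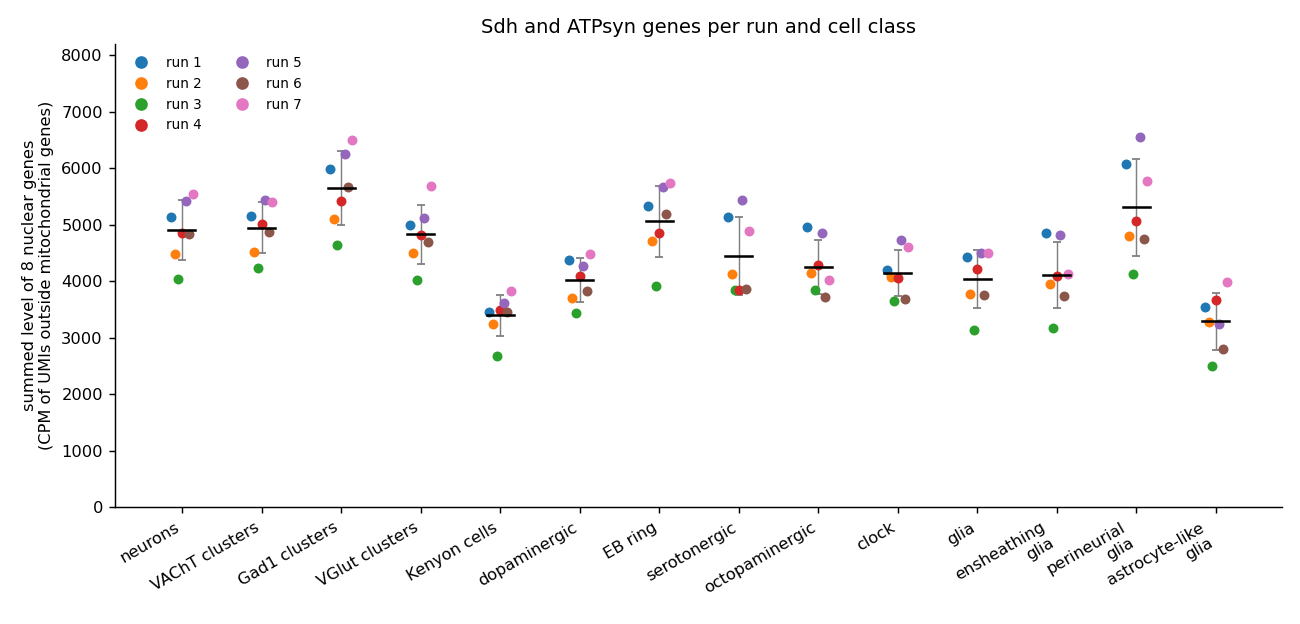
Summed level of the 8 nuclear members in CPM of the UMIs outside mitochondrial genes (vertical axis) in 14 cell classes (horizontal axis), with 1 point per run, means as lines and SDs as bars over 7 runs. Kenyon cells average 3397 CPM, neurons as a whole 4902 CPM and Gad1 clusters 5657 CPM.

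Kenyon cells, the intrinsic neurons of the mushroom body, had lower levels of members of both genomes than the other neurons. Each of the 8 nuclear members and 12 of the 13 mitochondrial mRNAs were called lower, where 76.3% of 8689 genes tested were called and 38.5% were lower. SdhA had 98.9, 112 and 119 CPM as the lowest, median and highest run in Kenyon cells and 196, 222 and 238 CPM in the other neurons, without overlap (log2 difference -0.93 ± 0.04, SE, adjusted p = 1.64e-08). SdhB was lower by 0.68 and the 5 genes of complex V by 0.48 to 0.54 on the log2 scale, and on the normalised scale of the test the ranges of 7 nuclear members, all but SdhC (-0.38), did not overlap. Their median difference was -0.51, beside a median of 0.00 over all genes. The sum of the 8 genes was 0.642 to 0.700 times that of the other neurons within runs.

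Among the mitochondrial members, 6 of the 7 complex I transcripts, all but mt:ND4L, differed most in Kenyon cells. mt:ND2 had 53.9, 461 and 697 CPM as the lowest, median and highest run in Kenyon cells and 104, 886 and 1403 CPM in the other neurons (-0.74 ± 0.11, adjusted p = 0.000477). The ranges overlapped because run 1 was low in both. mt:ND1 (-0.69), mt:ND5 (-0.61), mt:ND4 (-0.57), mt:ND6 (-0.53) and mt:ND3 (-0.48) followed, then mt:CoII (-0.43), mt:Cyt-b (-0.42), mt:CoIII (-0.40), mt:CoI (-0.39 ± 0.07, adjusted p = 0.000874), mt:ND4L (-0.38) and mt:ATPase8 (-0.14, adjusted p = 0.0315). mt:ATPase6 was not called (-0.06, adjusted p = 0.239), mt:lrRNA was lower by 0.25 ± 0.07 on the log2 scale (adjusted p = 0.00735) and mt:srRNA was not called (0.06). Of the 56 genes under older symbols 54 were lower and 0 higher, and of 45 other pathway genes 35 were lower and 4 higher, with kdn (-1.22) and the ADP/ATP carrier gene sesB (-1.12) lowest.

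Dopaminergic neurons also had lower levels than the other neurons, with smaller differences. All 8 nuclear members and 11 mRNAs were called lower, where 35.8% of 8327 genes tested were called and 20.1% were lower. ATPsyn-gamma had 331, 431 and 478 CPM as the lowest, median and highest run in dopaminergic neurons and 408, 539 and 604 CPM in the other neurons. These ranges overlapped, but the difference was present in each run (-0.38 ± 0.03, SE, adjusted p = 1.64e-10). SdhC (-0.38), SdhA (-0.34), ATPsyn-b (-0.33), ATPsyn-beta (-0.31), ATPsyn-d (-0.29), ATPsyn-Cf6 (-0.28) and SdhB (-0.17) were lower too. The mRNAs differed less, from mt:ND6 (-0.30 ± 0.04), mt:ND3 (-0.29) and mt:ND2 (-0.26) to mt:CoI (-0.10), and mt:ND4L, mt:ATPase8, mt:lrRNA (0.03) and mt:srRNA (-0.04) were not called. Of the 55 tested genes under older symbols, 53 were lower and 0 higher, and of 45 other pathway genes 30 were lower and 1 higher, among them the phosphate carrier gene Mpcp (-0.53) and Sod2, the mitochondrial superoxide dismutase (-0.53).

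EB ring neurons, a class of the central complex that the study examines for sleep drive, differed from the other neurons in some nuclear and some mitochondrial members. Of the 8 nuclear members 5 were higher and none lower, where 41.1% of 8414 genes tested were called, 18.1% higher and 23% lower. SdhC had 309, 438 and 509 CPM as the lowest, median and highest run in ring neurons and 311, 385 and 452 CPM in the others (0.15 ± 0.03, SE), and the ranges overlapped. ATPsyn-b (0.15) and SdhB (0.13) were higher in 7 of 7 runs, and ATPsyn-beta (0.08) and ATPsyn-Cf6 (0.06) in 6. Of the 13 mitochondrial mRNAs, 6 of the 7 complex I transcripts and mt:Cyt-b were lower, from mt:ND1 (-0.30 ± 0.04, adjusted p = 0.000276) to mt:Cyt-b (-0.07), as were mt:lrRNA (-0.21 ± 0.02, adjusted p = 8.55e-09) and mt:srRNA (-0.19), while mt:ND3 and the mRNAs of complexes IV and V were not called. Of 55 tested genes under older symbols 28 were higher and 2 lower (18 and 6 with the UMIs outside mitochondrial genes as library size, which moved the median of all genes from -0.02 to -0.06), and of 45 other pathway genes 19 were higher and 2 lower, among them TFAM, the packaging factor of mitochondrial DNA (0.51).

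Gad1 clusters had higher levels of the nuclear members than VAChT clusters. SdhA had 223, 252 and 277 CPM as the lowest, median and highest run in Gad1 clusters and 193, 210 and 219 CPM in VAChT clusters, without overlap (log2 difference 0.35 ± 0.02, SE, adjusted p = 5.07e-09). All 8 nuclear members were called higher, from ATPsyn-d (0.22) to SdhA, where 54.1% of 8715 genes tested were called and 26.5% were higher. SdhC (0.33), ATPsyn-beta (0.30), ATPsyn-b (0.30) and SdhB (0.29) lay between. Of the 56 genes under older symbols 55 were higher and 0 lower, and of 45 other pathway genes 36 were higher and 4 lower, with kdn at 0.74. The mitochondrial mRNAs differed by 0.11 in the median, with 10 called higher, from mt:ND1 and mt:CoII (0.09 each) to mt:ATPase8 (0.19 ± 0.04), and with the UMIs outside mitochondrial genes as library size 2 were higher and 2 lower. That scaling moved the median of all genes from -0.01 to -0.10, and relative to it the mRNA median was 0.12 under both. mt:lrRNA was lower (-0.09 ± 0.02, adjusted p = 0.000468), as was mt:srRNA (-0.11).

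VGlut clusters, compared with the same VAChT samples, differed little. mt:ND3 had 127, 889 and 1190 CPM as the lowest, median and highest run in VGlut and 153, 1013 and 1302 CPM in VAChT clusters (-0.17), with run 1 lowest in both. mt:ND6 (-0.16), mt:ND2 (-0.10), mt:CoIII (-0.06), mt:CoII (-0.05), mt:lrRNA (-0.13, adjusted p = 1.2e-07) and mt:srRNA (-0.15) were also called lower, where 47.9% of 8700 genes tested were called, 23.5% higher and 24.5% lower. Of the nuclear members SdhA (0.08), SdhB (0.07) and ATPsyn-Cf6 (0.04) were called higher and ATPsyn-gamma (-0.07) lower. Of these, ATPsyn-Cf6 alone had the same sign in every run. With the UMIs outside mitochondrial genes as library size, which moved the median of all genes from -0.01 to -0.04, none was higher and 3 were lower. Of the 56 genes under older symbols 39 were lower and 2 higher, and of 45 other pathway genes 20 were lower and 6 higher.

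No member was called between the run of ZT 20 flies and the runs of ZT 8 flies. Run 5 was compared with runs 6 and 7 in a fit over 7 runs with 2 residual degrees of freedom, and ZT, run, sleep condition and lines cannot be told apart in it. With 1 run in 1 arm, the lack of calls does not show that the members were alike. In glia edgeR called 0 of 23 members (lowest adjusted p 0.815, 1 with an unadjusted p below 0.05) and DESeq2 called 0, where 0.147% of 8155 genes tested were called, 0.11% higher and 0.0368% lower. The mRNA median was -0.35, -0.049 with the 30% limit and -0.16 with at least 3000 UMIs per cell, and the nuclear median was 0.19. In neurons edgeR called 0 of 23 members (0 with an unadjusted p below 0.05) and DESeq2 called 0, where 0.065% of 10761 genes tested were called, 0.0372% higher and 0.0279% lower. mt:lrRNA had 6376 CPM in neurons of run 5 against 13353 and 12439 CPM in runs 6 and 7 (-1.02 ± 0.44, SE, adjusted p = 1). Some members were called in the fits without run 2, 3, 6 or 7. Each of these fits had 1 residual degree of freedom, so such calls are not read as differences. The difference of mt:lrRNA stayed at -1.01 without run 2 and -1.02 without run 3, and was -0.93 without run 6 and -1.09 without run 7. The mRNA median in neurons moved from -0.22 to -0.17 without run 6 and -0.35 without run 7. The nuclear median moved from 0.10 to 0.033 and 0.19 in the same fits.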

How the data were processed

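In all, 7 pools of dissociated brains were sequenced with 10x 3′ v3.1 chemistry. The authors aligned and counted reads with Cell Ranger 3.1.0 and deposited UMI counts per gene and barcode for each run (build BDGP6). These counts were used as deposited, after 4 antibody features with 0 UMIs in runs 5 to 7 were left out. Counts are of molecules, so their precision follows the UMI totals given in the report.

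Cells with fewer than 200 genes and doublets called by Scrublet within each run were removed (in runs 6 and 7 the lowest threshold of the other runs was used, 0.42, because the automatic one called none). Fewer were called than the rate expected from the number of cells, with 1.77% against 10.7% in run 5 and 7.74% against 29.6% in run 2. The study also removed doublets by genotype, which was not done here, so doublets can remain. No mitochondrial limit was applied in the main setting. The member genes and the nuclear respiratory chain genes under older symbols were left out of cell size, variable genes and clustering (1224 genes, 58 components, 15 neighbours, Louvain resolution 8, 215 clusters, scanpy 1.11.5). A cluster was named where enough markers of a class were a minimum of 2 times higher than elsewhere and had a UMI in 10% or more of the cluster, with 4 markers for glia, 8 for Kenyon cells, 5 for hemocytes and photoreceptors and 3 for the others. This rule was set after cluster profiles were seen, and members and gene lists were chosen with earlier results of these data known. Clusters with few UMIs for their runs kept a name only where a marker of it was among their 10 genes of largest fold. Neuronal clusters of 2909, 1489 and 87 cells thereby became unnamed. Clusters of 3174 ensheathing, 126 astrocyte-like and 145 Kenyon cells kept their names.

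UMIs were summed per run and class (at least 5 cells) and compared with edgeR 4.0.16 (R 4.3.3, TMM, filterByExpr, quasi-likelihood test, prior count 0.5, Benjamini-Hochberg over all genes tested, threshold 0.05). The run was a block because both classes came from the same library. CPM over all cells and CPM of mitochondrial members are of all UMIs. CPM of nuclear members per class and of other genes is of the UMIs outside mitochondrial genes, unless stated. Log2 differences are on the TMM scale. Named were all mitochondrial mRNA and ribosomal RNA members, the called nuclear members with the same sign in all runs, up to 10 per comparison, members at the extremes of each complex and up to 5 other pathway genes per comparison, of which the text gives those with a known role. Members outside this rule are given with their run count or as not having the same sign in every run. Tests were tried on simulated data. Alternatives were a 30% mitochondrial limit, at least 3000 UMIs or 20 cells, doublets kept, resolution 4 (125 clusters), UMIs outside mitochondrial genes as library size without TMM, DESeq2 1.42.0, no low-count filter, no block, and each run left out. Added after the data were seen was the removal of 1 glial cluster with subperineurial markers that held muscle RNA in run 6, which changed no call. Gene positions and lengths are from the BDGP6.54 annotation. Sequences of members were not used here.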

Additional observations from a re-analysis of the deposited data

How the results depend on the processing

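Of 652 values that summarise a comparison under an alternative, 619 moved by less than the spread between runs or, for counts of calls, by less than 1.5 times. Some of these changed sign near 0, and the ribosomal RNA median of the ZT comparison in glia went from -0.34 to 0.078 with at least 3000 UMIs and to 0.33 without run 6. With the 30% mitochondrial limit the mean mitochondrial share of astrocyte-like glia went from 24.6% to 15.5%, the ribosomal RNA median in glia against neurons was 1.84 and that in astrocyte-like against ensheathing glia 0.87, with 1 member called in place of 8. With at least 3000 UMIs per cell the astrocyte-like against ensheathing medians were 0.39 for the mRNAs, 2.86 for the ribosomal RNAs and 0.032 for the nuclear members, with mt:ND3 at 0.099 and ATPsyn-beta at 0.024, the perineurial mRNA median was 0.50 with 17 members called in place of 10, and the nuclear median of the ZT comparison in glia was 0.050. With doublets kept the nuclear median was -0.019 in astrocyte-like and 0.22 in perineurial against ensheathing glia, and mt:ND3 of the former was 0.030. At resolution 4, 5 members were called in astrocyte-like against ensheathing glia, and mt:CoII (0.0012) and ATPsyn-beta (0.0023) turned in VGlut against VAChT clusters. With the UMIs outside mitochondrial genes as library size the nuclear median of glia against neurons was -0.29, with ATPsyn-b at -0.16, ATPsyn-Cf6 at -0.057, ATPsyn-gamma at -0.22 and ATPsyn-beta at -0.27, that of astrocyte-like against ensheathing glia was -0.32 with 14 members called, and the Gad1 medians were 0.021 for the mRNAs, -0.19 for the ribosomal RNAs and 0.20 for the nuclear members, with mt:CoII at -0.0024 and mt:ND1 at -0.0015. Without the low-count filter the nuclear median of glia against neurons was -0.0080. The cause of these shifts was not tested.

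The runs pair the classes, since both came from one library. Without the replicate block the members called went from 8 to 2 in astrocyte-like against ensheathing glia, 10 to 1 in perineurial against ensheathing glia, 21 to 8 in Kenyon cells, 19 to 7 in dopaminergic neurons, 14 to 0 in EB ring neurons, 11 to 0 in VGlut clusters and 20 to 5 in Gad1 clusters. Leaving out 1 run at a time, the members called ranged from 19 to 20 in glia against neurons, 6 to 8 in astrocyte-like, 5 to 9 in perineurial, 20 to 22 in Kenyon, 18 to 19 in dopaminergic, 12 to 14 in EB ring, 10 to 12 in VGlut and 20 to 23 in Gad1 comparisons, and 0 to 2 in the ZT comparison in neurons, where the fits without run 2, 3, 6 or 7 had 1 residual degree of freedom, and the perineurial nuclear median ranged from 0.23 to 0.33. mt:lrRNA in the ZT comparison in glia, which was not called, ranged from -0.88 without run 7 to 0.093 without run 6. Over the 15031 genes that DESeq2 tested in glia against neurons, which include low-count genes, the median was 0.44, while that of the nuclear members was 0.081. Calls lost when 1 run was left out were those of ATPsyn-gamma in glia against neurons (run 1), mt:ND3 (runs 1, 2, 5 and 6) and mt:ND6 (all runs but 3 and 4) in astrocyte-like glia, mt:ND5 (run 3), mt:ND4 and mt:ND6 (runs 2, 3 and 4), SdhB (runs 3, 5, 6 and 7) and ATPsyn-d (each run) in perineurial glia, mt:ATPase8 in Kenyon cells (runs 1, 5 and 6), mt:ND1 in dopaminergic neurons (runs 2 and 6), mt:ND4L (runs 2 and 3), mt:Cyt-b (runs 3, 5 and 7) and ATPsyn-Cf6 (runs 2, 4, 5 and 6) in EB ring neurons, and mt:CoII (run 7), mt:CoIII (runs 2, 3 and 7) and ATPsyn-gamma (run 5) in VGlut clusters, with the highest adjusted p without 1 run between 0.0523 and 0.141.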

Other observations

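Astrocyte-like cluster 2 and cluster 49 also differed in the RNAs of the dosage compensation complex, roX1 (1315 and 4803 CPM of the UMIs outside mitochondrial genes, means over 7 runs) and roX2 (155 and 1206 CPM), and in the non-coding RNA genes CR43334 (10.6 and 528 CPM) and CR17025 (7.65 and 368 CPM). The ribosomal protein gene RpL31 was higher in cluster 2 (5058 CPM) than in cluster 49 (1506 CPM). The nuclear members summed to 2895 CPM in cluster 2 and 3583 CPM in cluster 49. The nuclear members were left out of the clustering, but the other genes named here were not. Differences in those other genes can thus be part of what set the clusters apart. No test was made between the clusters.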
